A study of Homo sapiens with 4 samples.

Results

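ELF5 occupancy was examined at 8 genes that license and carry out DNA replication, MCM2, MCM3, MCM4, MCM5, MCM6, MCM7, CDT1 and PCNA. The members are the ELF5 peaks whose summit lies in a fixed window of 80 to 115 kb around each gene on hg19, chosen by position alone, and they number 98 of the 115384 peaks in the list. ELF5 is an ETS transcription factor known from luminal progenitor and milk-producing cells of the breast. It was immunoprecipitated from untreated T47D, an established breast cancer cell line labelled as human luminal A epithelial cells and grown in RPMI with FBS and insulin. The series held 3 ELF5 ChIP samples and 1 input sample of this line, and the deposited data used here are 1 peak list. The list gives no value per replicate, so it shows no spread between replicates, and no group of samples can be set against another.

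The MCM2 to MCM7 proteins form the ring-shaped helicase that is loaded onto origins in G1 and unwinds DNA in S phase. CDT1 delivers the ring to the origin recognition complex and CDC6, and is then inhibited by geminin and degraded so that origins are not licensed again in the same cycle. PCNA is the sliding clamp that holds polymerases on DNA behind the helicase. Transcription of these genes rises toward S phase under E2F factors, and their promoters are textbook E2F targets. ETS factors such as ELF5 recognise a GGAA core.

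The sequences before the starts of these genes are shown for the E2F and ETS letters they hold or lack. RefSeq promoters on GRCh38.p14 were matched by symbol for 6 of the 8 genes, 9 starts in all, and MCM4 and MCM5 had no entry. Printed are 7 of the 9, without the third start of MCM7 and the second of PCNA, which held no match to the E2F forms searched and were counted below. Each line gives the 250 bases before a start, 5′ to 3′ on the strand of the gene. Capitals mark the ETS core GGAA and the E2F forms TTTGGCGC and TTTCCCGC, each on either strand, so that TTCC is GGAA, and GCGGGAAA is TTTCCCGC, on the other strand. No other E2F form was searched, so unmarked letters may hold one. These coordinates are of another build than the peaks, so whether a printed sequence lies under a peak was not determined.
MCM2, chr3:127598161-127598410, plus strand: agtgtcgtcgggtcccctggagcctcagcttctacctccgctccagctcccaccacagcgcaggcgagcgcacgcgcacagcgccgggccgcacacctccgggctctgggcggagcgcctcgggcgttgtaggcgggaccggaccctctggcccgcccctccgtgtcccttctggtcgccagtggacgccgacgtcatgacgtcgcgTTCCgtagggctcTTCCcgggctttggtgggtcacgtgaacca
MCM3, chr6:52284743-52284992, minus strand: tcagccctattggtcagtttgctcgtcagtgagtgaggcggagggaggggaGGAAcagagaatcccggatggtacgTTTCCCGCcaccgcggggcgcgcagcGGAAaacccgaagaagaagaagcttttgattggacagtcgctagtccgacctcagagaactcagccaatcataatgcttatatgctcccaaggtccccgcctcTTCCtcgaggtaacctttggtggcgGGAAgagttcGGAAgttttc
MCM6, chr2:135876444-135876693, minus strand: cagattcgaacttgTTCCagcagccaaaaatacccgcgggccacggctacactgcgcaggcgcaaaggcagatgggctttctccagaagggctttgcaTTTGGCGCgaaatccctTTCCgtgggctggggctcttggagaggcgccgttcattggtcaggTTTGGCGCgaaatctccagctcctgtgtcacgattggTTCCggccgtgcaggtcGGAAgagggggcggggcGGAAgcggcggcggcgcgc
MCM7, start 1, chr7:100101398-100101647, minus strand: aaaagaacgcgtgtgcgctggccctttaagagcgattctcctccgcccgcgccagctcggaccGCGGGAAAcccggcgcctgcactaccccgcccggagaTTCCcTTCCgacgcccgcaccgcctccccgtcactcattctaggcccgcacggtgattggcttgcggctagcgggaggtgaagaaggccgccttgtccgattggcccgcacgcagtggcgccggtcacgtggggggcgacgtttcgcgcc
MCM7, start 2, chr7:100100755-100101004, minus strand: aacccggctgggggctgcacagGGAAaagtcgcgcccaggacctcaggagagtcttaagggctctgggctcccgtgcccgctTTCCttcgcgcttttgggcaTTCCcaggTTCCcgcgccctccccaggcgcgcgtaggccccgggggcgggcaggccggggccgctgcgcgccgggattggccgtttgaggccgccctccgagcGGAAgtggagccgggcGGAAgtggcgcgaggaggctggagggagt
PCNA, start 1, chr20:5126623-5126872, minus strand: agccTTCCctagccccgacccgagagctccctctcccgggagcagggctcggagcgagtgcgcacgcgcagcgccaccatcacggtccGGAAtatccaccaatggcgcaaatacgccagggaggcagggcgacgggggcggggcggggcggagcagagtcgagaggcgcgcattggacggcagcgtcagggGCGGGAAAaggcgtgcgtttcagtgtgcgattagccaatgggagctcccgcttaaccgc
CDT1, chr16:88803539-88803788, plus strand: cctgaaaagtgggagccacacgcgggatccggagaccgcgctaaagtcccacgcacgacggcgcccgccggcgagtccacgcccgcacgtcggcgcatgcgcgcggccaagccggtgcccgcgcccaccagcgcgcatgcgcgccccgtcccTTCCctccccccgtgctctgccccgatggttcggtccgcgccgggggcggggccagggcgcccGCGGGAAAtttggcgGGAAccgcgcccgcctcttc

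An E2F form was found before 5 of the 9 starts, belonging to 5 of the 6 genes: MCM3, MCM6, MCM7, PCNA and CDT1. Over all 35116 promoters of the table, 1.93% held one in the same 250 bases. MCM6 held 2 copies of TTTGGCGC, a form present in 0.55% of all promoters, and the other 4 genes held TTTCCCGC, present in 1.39%. The sequence before MCM2 held neither. GGAA was found before all 9 starts, as in 92.7% of all promoters, with 2 to 6 matches against a median of 3 over the table. A TTTCCCGC match contains a GGAA match on the other strand, so these counts overlap. The longer ETS form CCGGAAG was found before none of the 9 starts (8.52% of all promoters), and AGGAAG before 2 of them (28.7%). CGGAAG, a shorter form chosen after the sequences had been seen, was found before 5 starts (16.5%), in MCM3, MCM6 and all 3 starts of MCM7. The 9 sequences held 17 to 42 CpG (a C followed by a G) and 55.6% to 76.4% GC. Over all promoters the medians were 11 CpG and 58% GC. The E2F forms, CCGGAAG and CGGAAG each contain a CpG, and the shares over all promoters are not matched for CpG content. Matches describe letters in these windows and are not sites.

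Each of the 8 windows held at least 1 strong ELF5 peak. A peak is called strong here when its fold over the local background is among the highest 10% of the list, which begins at a fold of 11.99. The background share of strong peaks is therefore 10% of the list, and 18 of the 98 peaks in the windows were strong, 18.4%. Without the CDT1 window the share was 13 of 58. The other 80 peaks had folds from 2.02 to 11.46 with a median of 3.36, against 3.50 for the peaks of the list that were not strong. The strong ones had a median of 24.995, against 18.8 for the strong peaks of the list. The median fold over all 98 was 3.79, against 3.66 over the list, and without the CDT1 window it was 4.79.

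**Figure D1:**
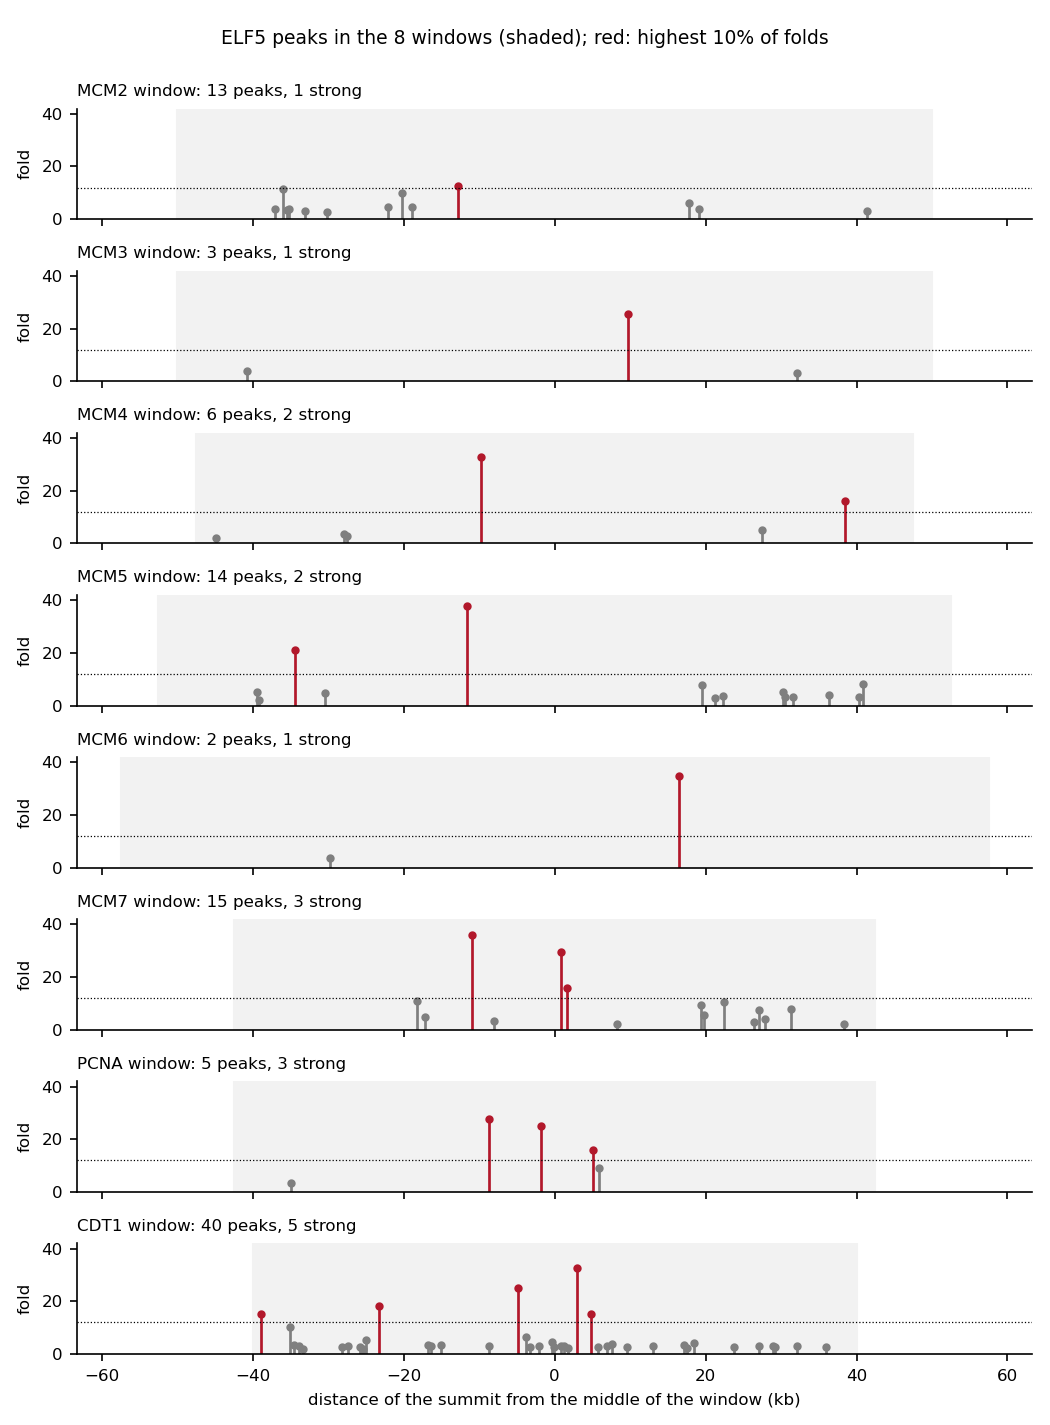
Fold over local background of each of the 98 ELF5 peaks (vertical axis) against the distance of its summit from the middle of its window in kb (horizontal axis), with 1 panel per gene window; shading is the window, red marks strong peaks and the dotted line is the fold of 11.99 at which they begin. MCM6 and MCM3 show 1 tall peak among very few, CDT1 shows 5 strong peaks among 40, and MCM2 has a single peak just above the line.

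The pileup of fragments and the background behind each peak were recovered from the deposited fold and p, with the fold as (0.91 × pileup + 1) divided by (background + 1), where 0.91 is the scaling that fits the list. The intervals below take exact Poisson 95% limits for the pileup and hold the background fixed. They cover the counting error of the pileup only. Error in the background is left out, and the intervals do not allow for the summit having been picked as a maximum. Positions of peaks are on hg19, counted from 1. A gene name given to a peak is that of its window only, and the peak may belong to a neighbouring gene.

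The 6 windows of the helicase subunits held 53 peaks, of which 10 were strong. The MCM5 window, in 22q12.3, held the highest fold of all 8. MCM5 and MCM2 line the gate through which DNA enters the ring. The strongest peak of the MCM5 window, at chr22:35795690-35796303, had a pileup of 130 over 2.16 fragments of background and a fold of 37.7 (31.6 to 44.8). A larger fold was found for 592 peaks of the list. A second strong peak lay at chr22:35772853-35773209, with a pileup of 114 over 4 and a fold of 20.9 (17.3 to 25.1). It was the narrowest of the 18 strong peaks, 357 bp against a median of 798.5 bp. The other 12 peaks of the MCM5 window had folds from 2.29 to 8.21. In the gene order of the RefSeq table MCM5 stands between HMOX1, heme oxygenase, and RASD2, and which gene a peak belongs to was not determined here, for this or any other window.

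The MCM7 window, in 7q22.1, held 15 peaks and the highest median fold of the windows with more than 5 peaks, 7.53. MCM7 is a helicase subunit whose gene also contains the microRNA genes MIR25, MIR93 and MIR106B. The strongest peak of the MCM7 window, at chr7:99686371-99686974, had a pileup of 119 over 2.025 and a fold of 36.1 (29.98 to 43.2). Next came a pair of strong peaks with summits 782 bp apart near the middle of the window. The peak at chr7:99698006-99698584 had a pileup of 123 over 2.835 and a fold of 29.4 (24.5 to 35.1). The peak beside it, at chr7:99698799-99699799, had a pileup of 53 over 2.0925 and a fold of 15.9 (12.003 to 20.7). The intervals of this pair did not overlap, so the 2 neighbours differed by more than the counting error of the pileup. It was the only pair of strong peaks within 1 kb of each other in the 8 windows. Another 3 peaks of this window, with folds of 11.1, 10.6 and 9.48, were not called strong, though their intervals reached 11.99. The genes next to MCM7 in the RefSeq order are COPS6 and AP4M1.

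The MCM6 window, in 2q21.3, was the longest at 115 kb and the emptiest, with 2 peaks. Its band was sparse too, with 1.18 peaks per 100 kb against 1.74 in the window, and 30% of the 20 peaks of the band were strong. MCM6 is the subunit whose C-terminal domain binds CDT1. Its strong peak, at chr2:136633393-136634283, had a pileup of 107 over 1.81, the lowest background in the list, and a fold of 34.96 (28.7 to 42.2). The other peak had a pileup of 10 over the same lowest background and a fold of 3.59 (1.91 to 6.30), and its summit lay 46.3 kb away. The strong peak thus held 91.5% of the pileup summed over the peaks of the MCM6 window, the largest such share of the 8.

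The MCM4 window, in 8q11.21, held the peak with the smallest p of all 98. MCM4 is a helicase subunit whose N-terminal tail is phosphorylated by the DBF4-dependent kinase when origins fire. The peak at chr8:48872409-48874165 was 1757 bp wide, with a pileup of 215 over 5, a fold of 32.8 (28.6 to 37.4) and a −log10 q of 226. Only 330 peaks of the list had a smaller p, while 1172 had a larger fold. The other strong peak of the MCM4 window, at chr8:48920681-48921410, lay 38.4 kb above the middle of the window, with a pileup of 124 over 6 and a fold of 16.3 (13.5 to 19.4). The next summit above the strongest one was 37.3 kb away. MCM4 stands between PRKDC, the catalytic subunit of the DNA-dependent protein kinase, and UBE2V2.

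The MCM3 window, in 6p12.2, held 3 peaks, 1 of them strong. MCM3 is the subunit through which the ring first contacts the origin recognition complex and CDC6. The strong peak of the MCM3 window, at chr6:52149143-52149958, had a pileup of 99 over 2.565 and a fold of 25.5 (20.8 to 31.0). The other peaks had folds of 3.88 and 3.08, and the longest stretch without a summit was 50.5 kb. The 3.88 peak lay over a background of 7, the highest behind any of the 98.

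The MCM2 window, in 3q21.3, differed from the rest in having many peaks and no tall one. MCM2 is a helicase subunit that also binds histones H3 and H4. Its only strong peak, at chr3:127316941-127317576, had a pileup of 55 over 3 and a fold of 12.8 (9.67 to 16.5), so its interval reached below the fold of 11.99. The next, at chr3:127293871-127294202, had a pileup of 54 over 3.375 and a fold of 11.5 (8.66 to 14.9), and the third, at chr3:127308952-127310590, had a pileup of 54 over 4 and a fold of 10.03 (7.58 to 13.0). The 3 intervals overlapped, and the line drawn at 11.99 separates peaks that counting error does not. The other 10 peaks of the MCM2 window had folds from 2.75 to 6.01. TPRA1 and PODXL2 are the protein-coding neighbours.

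CDT1, the loading factor, had the most crowded window. Its 80 kb in 16q24.3 held 40 peaks, 5 of them strong, and the peaks covered 20.7% of the window, against 0.892% to 7.97% in the other 7. The strongest peak of the CDT1 window, at chr16:88876937-88879291, was 2355 bp wide, with a pileup of 214 over 5 and a fold of 32.6 (28.4 to 37.3). Its −log10 q was 224, and 351 peaks of the list had a smaller p. A second, at chr16:88869783-88870563, had a pileup of 136 over 4 and a fold of 24.9 (20.96 to 29.5), and the third, at chr16:88850331-88852370, had a pileup of 96 over 3.834 and a fold of 18.3 (14.8 to 22.3). The last 2 strong peaks had folds of 15.3 and 15.2. All 3 peaks of at least 2000 bp among the 98 lay in the CDT1 window and were strong, where 0.448% of the list is that wide. Most peaks of that width in the list were strong too, 428 of 517. The other 35 peaks were mostly faint: the median fold of the CDT1 window was 3.09, the lowest of the 8, and 8 of its 40 peaks had a q of 0.05 or more.

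The crowding around CDT1 was shared with its band. Band 16q24.3 held 34.02 peaks per 100 kb, of which 5.33% were strong, and the CDT1 window held 50 per 100 kb, of which 12.5% were strong. The list as a whole held 3.80 peaks per 100 kb. PIEZO1, APRT and GALNS are the neighbouring protein-coding genes in the RefSeq order, and APRT encodes adenine phosphoribosyltransferase.

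PCNA, the clamp, showed the opposite arrangement, few peaks of which most were strong. The window spans the boundary of 20p13 and 20p12.3 and held 5 peaks, 3 of them strong, in a row with summits 6971 and 6845 bp apart. Band 20p13 held 8.12 peaks per 100 kb, 12.3% of them strong, and 20p12.3 held 1.15, 25.5% of them strong. The window held 5.88 per 100 kb, 60% of them strong. The strongest peak of the PCNA window, at chr20:5093480-5094224, had a pileup of 116 over 2.835 and a fold of 27.8 (23.001 to 33.3). The middle one, at chr20:5099853-5100990, had a pileup of 109 over 3 and a fold of 25.04 (20.6 to 30.2), and counting error did not separate it from the first. The third, at chr20:5107119-5108177, had a pileup of 50 over 1.89 and a fold of 16.1 (12.03 to 21.1), an interval below that of the first and overlapping that of the middle one. A companion peak lay 787 bp from the third, with a fold of 9.04 (6.32 to 12.6). PCNA stands between TMEM230 and CDS2, and the RefSeq table gives it 2 starts.

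**Figure D2:**
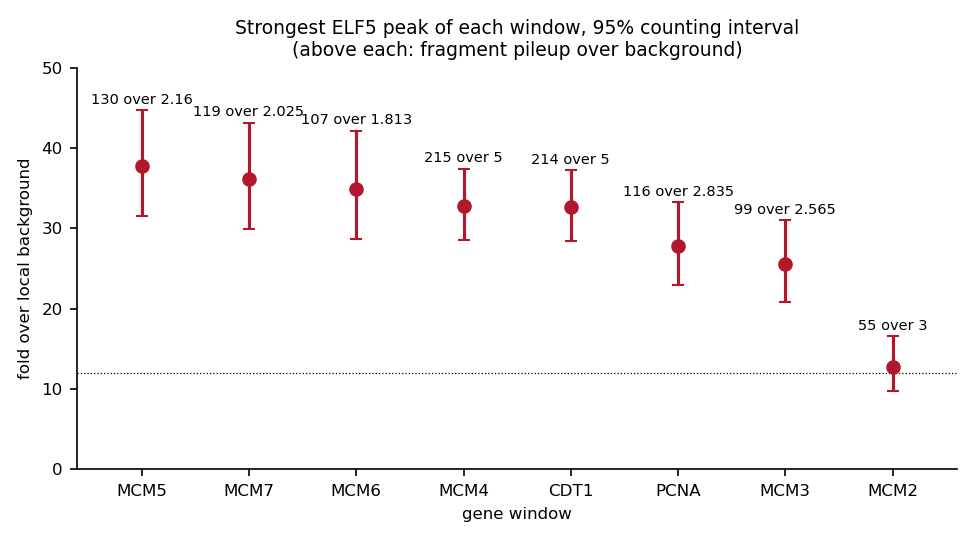
Fold of the strongest ELF5 peak in each of the 8 windows (points) with its exact Poisson 95% counting interval (bars), in order of fold; the number above each bar is the pileup over the background, and the dotted line is the fold of 11.99. MCM2, at 12.8, stands below the other 7, whose intervals form a run of overlapping neighbours from 37.7 to 25.5.

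By fold the strongest peaks ran in the order MCM5, MCM7, MCM6, MCM4, CDT1, PCNA, MCM3 and MCM2. Of the 28 pairs among them, 20 had overlapping intervals. With the backgrounds held fixed, all 7 pairs with MCM2 did not overlap, nor did MCM5 and MCM3. The backgrounds of MCM5 and MCM3 were 2.16 and 2.565, and their own error is not in the intervals. No 2 neighbours in the order were separated apart from MCM3 and MCM2. By p the order was MCM4, CDT1, MCM5, MCM7, MCM6, PCNA, MCM3 and MCM2. MCM4 and CDT1, first by p, had the highest pileups, 215 and 214, over a background of 5, while MCM5, MCM7 and MCM6, first by fold, had pileups of 107 to 130 over backgrounds of 1.81 to 2.16. In every window the peak with the largest fold was also the peak with the smallest p.

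**Figure D3:**
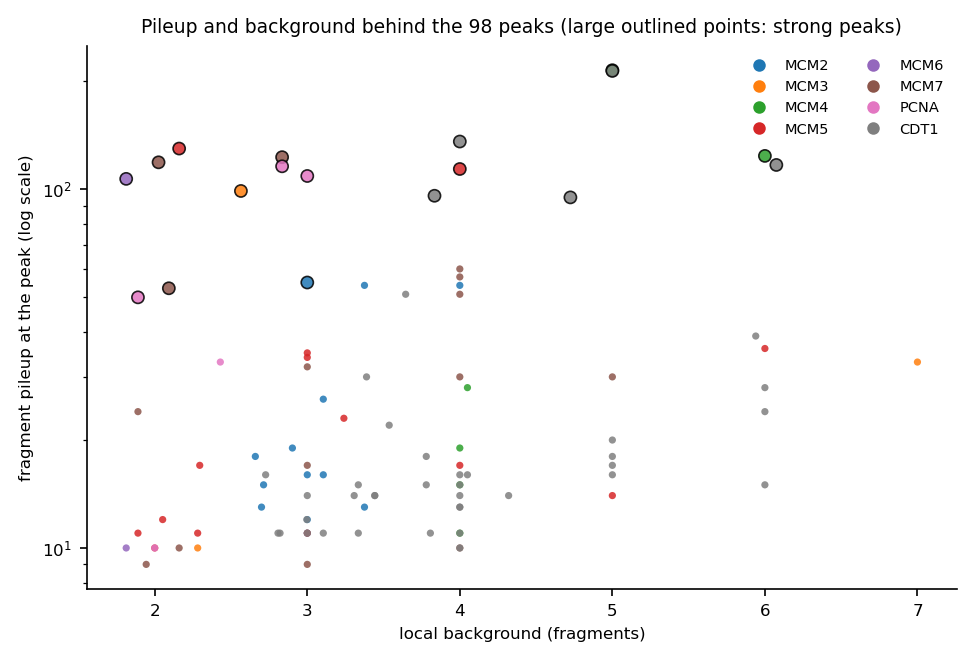
Fragment pileup at each of the 98 peaks (vertical axis, log scale) against the local background in fragments (horizontal axis), coloured by gene window, with strong peaks drawn large and outlined. Strong peaks have pileups of 50 to 215 over backgrounds of 1.81 to 6.08; the points of MCM4 at 215 and CDT1 at 214 over a background of 5 coincide.

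The strong peaks had pileups from 50 to 215 with a median of 115, against a median of 92 for strong peaks of the list. Their backgrounds had a median of 3, against 3.105 over the list. Of the 18 strong peaks 17 had an interval wholly above 11.99, the exception being that of MCM2. The lowest limits among the 17 were 12.003 in the MCM7 window and 12.03 in the PCNA window. These lay barely above 11.99, with error in the background left out. Among the peaks not called strong, 7 had an interval that reached 11.99. The other 80 had a median pileup of 15, at which small differences in fold cannot be ranked. Of all 98 peaks 86 had a q under 0.05, 87.8%, against 87.5% of the list. The 12 others lay in the windows of CDT1 (8), MCM7 (2), MCM4 (1) and MCM5 (1). Without the CDT1 window 54 of 58 peaks had a q under 0.05, 93.1%. Width went with fold in the windows (Spearman rho 0.741 over 98 peaks) as in the list (0.598 over 115384), a description, since the peaks share their libraries, and width and fold come from the same signal. The smallest width of the list, 135 bp, was that of 6 of the 98 peaks, and 9.27% of the list.

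Distances between neighbouring summits were added after the data had been seen. Close spacing of peaks was mainly a trait of the CDT1 window. It gave 39 of the 90 distances between neighbouring summits, with a median of 1222 bp, and 18 of them were under 1000 bp. In the other 7 windows 12 of 51 distances were under 1000 bp, 23.5% against 22.8% in the list, and 5 were under 400 bp, 9.80% against 5.44%. The median distance without the CDT1 window was 4016 bp, and in the list 4186.5 bp. By window the medians of MCM2 (1983 bp), MCM7 (3110 bp) and MCM5 (4016 bp) lay below that of the list, and those of PCNA (6908 bp), MCM4 (16929 bp), MCM3 (36408 bp) and MCM6 (46262 bp) above it. Of the 18 strong peaks 5 had another summit within 1 kb. The shortest distance, 199 bp, lay between peaks of the MCM5 window with folds of 4.998 and 3.29. The shortest in the CDT1 window was 262 bp and in the MCM2 window 293 bp, in each case between peaks that were not strong.

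The windows were set beside all non-overlapping tiles of the same length on chromosomes 1 to 22 and X. Tiles with at least 1 strong peak made up 23.8% of the tiles of 100 kb, the length of the MCM2 and MCM3 windows, 22.9% for MCM4, 24.5% for MCM5, 26.1% for MCM6, 21.3% for MCM7 and PCNA, and 20.4% for CDT1. All 8 windows held one. Tiles include gene deserts and assembly gaps, whereas the windows were placed on genes. Among tiles with at least 1 peak the shares were 34.7% to 39.4%, and among tiles with at least as many peaks as the window they ran from 48.0% for MCM6 to 81.6% for CDT1. Gene positions on hg19 were not used here, so the windows were not compared with windows around other genes, and a strong peak near a gene is not shown to be particular to replication genes.

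Peak number and peak height ranked the windows differently. As many peaks as in the CDT1 window were found in 0.3005% of its tiles, and as many as in the MCM7, MCM5 and MCM2 windows in 5.16%, 7.94% and 8.20%. For PCNA this share was 20.1%, for MCM4 18.5%, for MCM3 35.5% and for MCM6 49.8%. A peak as high as the strongest of the window was found in 1.96% of tiles for MCM7, 1.97% for MCM5, 2.97% for CDT1, 3.14% for MCM6, 3.45% for MCM4, 5.54% for PCNA, 8.16% for MCM3 and 22.4% for MCM2. The peak number of MCM6 was thus reached by 49.8% of tiles and its highest fold by 3.14%. For MCM2 the order was the reverse, with 8.20% for the peak number and 22.4% for the highest fold.

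**Figure D4:**
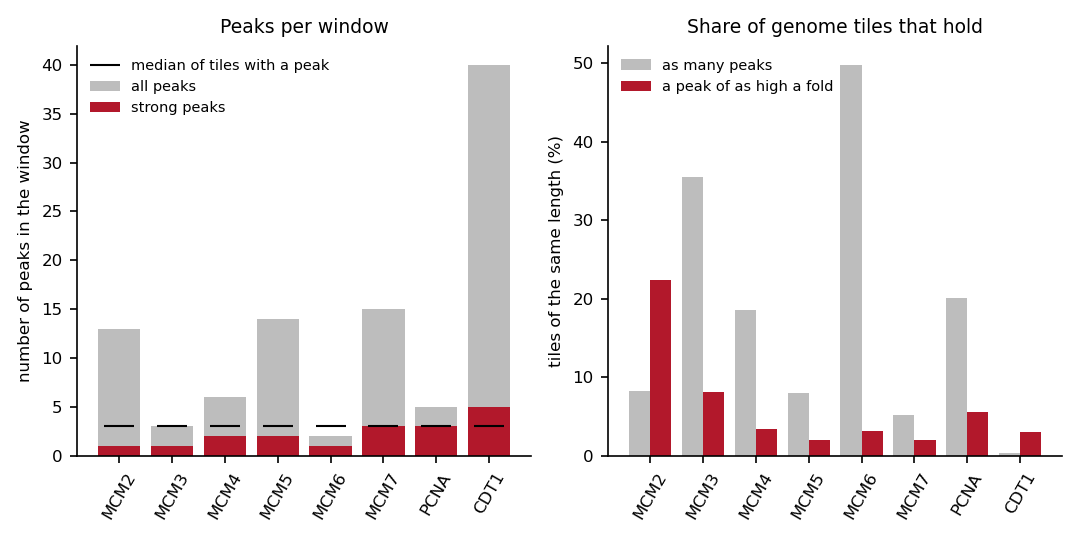
Left, number of ELF5 peaks in each window (grey bars) and of strong peaks among them (red bars), with the median of same-length tiles that hold a peak (black line, 3); right, percent of all same-length genome tiles that hold at least as many peaks (grey) or a peak of at least the same fold (red). CDT1 has the lowest grey share, 0.3005%, and MCM2 the highest red share, 22.4%.

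The window limits were set by position and not by the peaks. The 16 peaks nearest to a limit on the inside had a median fold of 3.83, and 3 were strong. The 16 nearest on the outside had a median fold of 3.93, and 2 were strong. One of these, with a fold of 24.7, lay 3.92 kb beyond the upper limit of the MCM5 window, and the other, with a fold of 28.5, lay 6.56 kb beyond that of MCM7. The strong MCM4 peak with a fold of 16.3 lay 9.07 kb inside its limit and the CDT1 peak with a fold of 15.3 lay 1.09 kb inside.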

How the data were processed

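Per the labels, the antibody sc-376737 was used for the ELF5 samples, while the protocol text names antibodies to other factors in other cell lines. The submitters' processing notes and the file header give hg19, and the track name refers to IDR and 1-3. Aligner, caller, threshold, use of the input and pooling are likewise not given in the sources used here. In the file as deposited, the authors' score is the whole part of 10 times −log10 p in all 115384 rows. The deposited fold (a ratio with no stated unit), the −log10 p and the −log10 q are the authors' own values per peak, used here only to describe and rank peaks of 1 list.

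A whole pileup times 0.91, a pseudocount of 1 and a Poisson tail beyond it returned every deposited p to 0.001 of its −log10. No peak of the 98 had a second solution, and pileups of 17093 and 17830 simulated peaks were all recovered (100%). Pileup and background are inferred, and the reads per sample are unknown here. Tiles used chromosome lengths from circlize 0.4.16 (R 4.3.3), and all else ran in Python 3.11.15 with matplotlib 3.10.9, pandas 2.3.3, scipy 1.17.1 and numpy 2.4.6.

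All 8 genes are named, with the strongest peak and up to 2 further strong ones in full. Peaks outside this rule that are given in full were picked after their values were seen. Within each window peaks were taken by position alone, but the members, lists and motifs were chosen with earlier results of these data known. The count of windows with a strong peak may therefore not be free of that choice. Other pathway genes were not analysed here, for want of gene positions on hg19.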

Additional observations from a re-analysis of the deposited data

How the results depend on the processing

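Of 134 alternative values, 97 stayed within the limits set for a change and 37 moved. A count was taken as moved if it differed by over 1.5 times, a fold or median if it left its 95% interval, and a percentile or share if it left its 95% exact binomial interval. With only the highest 50% of folds kept, the 98 peaks became 51 and their median fold went from 3.79 to 8.21, by construction. In the central 50% of each window 49 peaks remained, while all 8 windows still held a strong one. The 18 strong peaks became 11 with the highest 5% of folds and 29 with the highest 20%. With the highest 5% the MCM2 window held none. The median percentile of the windows by peak number was 86.6 among all tiles and 78.6 among tiles with at least 1 peak, which leaves out empty tiles. Of the 112 values of single genes 29 moved. The 40 peaks of the CDT1 window became 23 with q under 0.01, and also 23 when peaks with gaps of at most 500 bp were joined. The strongest peak of each window was the same by p and in the central 50% of the window. The distances between neighbouring summits, and their alternative without the CDT1 window, were both chosen after seeing the data. Without that window the share of neighbouring summits under 1000 bp apart went from 33.3% to 23.5%. Their median distance went from 1868 to 4016 bp. Leaving out replicates was not run, since the list gives 1 value per peak. No paired analysis was possible because replicates have no values of their own here. With pileups near 15, weak peaks cannot be ordered.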
